A study of Salmo salar with 72 samples.

Results

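The comparison was made between Atlantic salmon fed a soybean meal diet with inactivated Cyberlindnera jadinii yeast (ICJ) and salmon fed soybean meal without yeast (SBM), in the distal intestine (DI). The libraries were chosen by the diet and tissue in their labels, 6 ICJ fish and 6 SBM fish, 12 of the 72 libraries of the series. Vaccinated smolts in seawater ate 1 of 6 diets for 42 days, and DI and spleen were taken for RNA-seq. The question was how the DI of fish on 30% soybean meal differed when the diet also held the yeast.

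The SBM diet held 30% soybean meal and no yeast. The ICJ diet held 30% soybean meal and C. jadinii that had been heat-inactivated by spray-drying. By the formulation in the methods, the yeast stood in place of part of the fishmeal, wheat gluten and potato starch of the SBM diet, so the yeast and the lower share of these ingredients cannot be told apart. Beside these diets, values are given for a fishmeal diet (FM) and for a diet of 30% soybean meal with autolyzed, spray-dried C. jadinii (ACJ), with 6 fish each. The statistical fit also used fish of the remaining diets, 30% soybean meal with inactivated or autolyzed Wickerhamomyces anomalus yeast. According to the methods, the plant-based diets also carried added lysine and methionine. Ages are not given in the sources used here. Per the labels, 2 fish came from each of 3 tanks per diet, but the tank of a fish is not labelled. With counts summed over tanks inferred from the fish numbers, edgeR called 0 of 35019 genes and 2131 had an unadjusted p under 0.05. All fish were kept in this fit.

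In the healthy DI of salmon, tall enterocytes take up whole proteins from the gut lumen by endocytosis and degrade them in large vacuoles above the nucleus. Soybean meal in the diet is known to cause an inflammation of this segment, soybean meal-induced enteritis, in which these vacuoles are lost, the mucosal folds shorten and immune cells enter the lamina propria. The cell wall of yeast carries β-glucan, mannan and chitin, which cells of the innate immune system recognize, and yeast is given with soybean meal to test whether it eases this enteritis. Genes of endocytosis and the lysosome, of taurine handling, of the epithelial barrier and of immune cells were therefore followed.

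No gene differed between ICJ and SBM fish at an adjusted p under 0.05 with edgeR, which called 0 of 32157 genes (0%). The smallest adjusted p was 0.313. At an unadjusted p under 0.05 there were 1556 genes (4.84%), of which 944 were higher (2.94%) and 612 lower (1.9%) in ICJ fish. About 5% of genes would reach that p if no gene differed. DESeq2 called 8 of 37828 genes (0.0211%), 4 in each direction. Over all genes tested, log2 fold changes had a median of 0.0106, and their standard errors had a median of 0.297.

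The library of ICJ replicate 4 stood apart, and most results are given with and without it. Without it edgeR called 0 of 32436 genes (0%), with a smallest adjusted p of 1.00 and 795 genes (2.45%) at an unadjusted p under 0.05, 299 higher (0.922%) and 496 lower (1.53%). DESeq2 then called 4 of 53070 genes (0.00754%), 2 in each direction. The count of higher genes at an unadjusted p under 0.05 thus went from 944 to 299 without this fish, and the count of lower ones from 612 to 496.

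The depth was between 14149254 and 25311225 fragments on genes in SBM fish and between 14552185 and 27753356 in ICJ fish, with ICJ replicate 4 the lowest of these. Levels are given as CPM, the counts of a gene relative to the size of its library, scaled by TMM. Across 32157 genes, the log2 CPM of ICJ replicate 4 had a Pearson r of 0.807 with the mean of the other 11 libraries, and the r of each other library was between 0.938 and 0.973. Without it, the median r of a pair of fish was 0.930 within a diet and 0.934 between the diets.

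ICJ replicate 4 had very low levels of enterocyte genes. All 17 tested genes of absorption were lower in this fish than in the other 11, and their summed level, with 3 more genes of the list, was 105 CPM. The sum was between 5769 and 13992 CPM in SBM fish and between 5857 and 18733 CPM in the other ICJ fish. The mucin muc13b, of the enterocyte surface, was at 29.0 CPM in this fish and at 572 CPM or more in the other 11, and the apolipoprotein gene apoa1 was at 0.417 CPM and at 15.1 CPM or more in the others. Its anterior Hox genes and foregut factors summed to 166 CPM, against 17.2 to 37.2 CPM in SBM fish and 21.0 to 27.1 CPM in the other ICJ fish. Of this sum, hoxb8ab alone held 93.3 CPM. The list was split in this fish, with 6 of its 18 tested genes above all other 11 fish and 6 below them. Its posterior Hox genes summed to 75.2 CPM, within the 38.6 to 96.0 CPM of SBM fish. Of the 24 posterior Hox genes tested, 6 were above all other 11 fish and 1 was below them. The 5 genes with a symbol that stood furthest above the other 11 libraries were clcnk at 130 CPM, a chloride channel gene, tmps2 at 63.6 CPM, hoxb8ab at 93.3 CPM, cldx at 154 CPM and tacd2 at 414 CPM. The label gives DI for this library, and the defining markers of absorptive enterocytes were nearly absent from it. In tissue that is sequenced whole, fewer cells of a type and less RNA per cell cannot be told apart. Whether this piece differed from the others in its place along the gut or in the tissue it held was not tested.

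**Figure D1:**
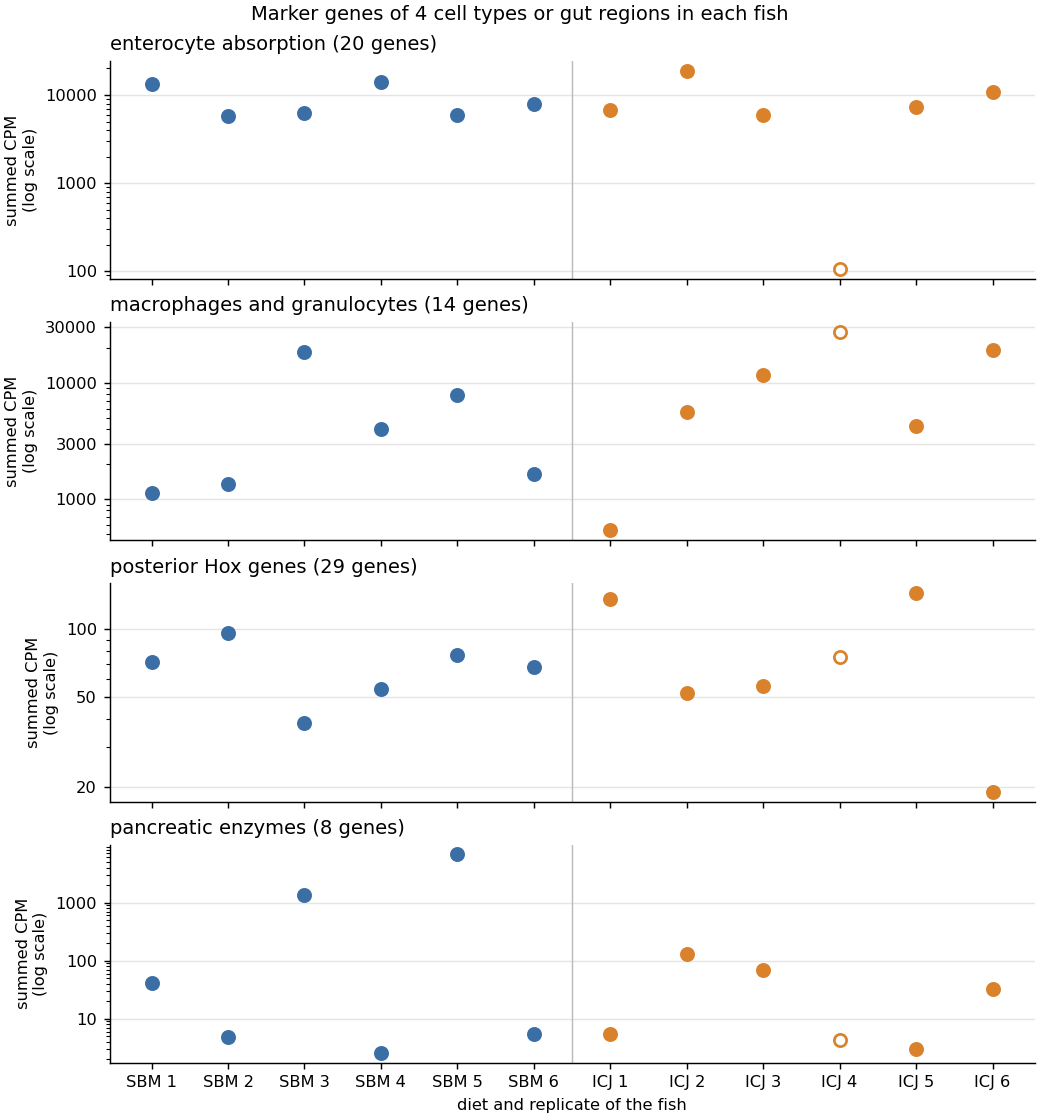
Summed CPM (log scale) of 4 marker lists in each of the 6 SBM and 6 ICJ fish, with ICJ replicate 4 as an open circle. Enterocyte genes were at 105 CPM in ICJ replicate 4 and at 5769 CPM or more elsewhere, pancreatic enzyme genes were highest in SBM replicates 5 and 3, and posterior Hox genes were highest in ICJ replicates 5 and 1. Most of the macrophage and granulocyte sum in ICJ replicate 4 and SBM replicate 3 was lyz.

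Other gene groups also differed strongly between fish of a diet. Genes of pancreatic enzymes, a list of 8 genes chosen after their values were seen, summed to 6726 CPM in SBM replicate 5 and 1325 CPM in SBM replicate 3. In the other 4 SBM fish the sum was between 2.6 and 41.8 CPM, and in ICJ fish it was between 3.0 and 130.9 CPM. Posterior Hox genes, which mark the hind part of the body axis, summed to 135.8 and 144.6 CPM in ICJ replicates 1 and 5, to 19.1 CPM in ICJ replicate 6, and to values between 38.6 and 96.0 CPM in SBM fish. Where along the intestine each piece was cut is not given in the labels, and values with the mean level of posterior Hox genes as a covariate, or without the fish concerned, are given beside results below.

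Among genes with a symbol, pdia2 had the smallest unadjusted p of those lower in ICJ fish. This gene, on chromosome 2 from 94593057 to 94610990, codes for a protein disulfide isomerase that in mammals is made mainly in the pancreas. Its level was between 21.5 and 188 CPM with a median of 44.0 CPM in SBM fish, and between 10.2 and 16 CPM with a median of 12.1 CPM in ICJ fish. The ranges of the diets did not overlap, and SBM replicate 5 was the highest fish. The log2 fold change was -2.35 ± 0.55 (SE), with an adjusted p of 0.456 by edgeR and 0.0386 by DESeq2. Without ICJ replicate 4 it was -2.43 ± 0.60, and the adjusted p was 1.00 by edgeR and 0.0784 by DESeq2. Without SBM replicates 3 and 5, in which pancreatic enzyme genes were high, the log2 fold change of pdia2 was -1.41 and the adjusted p 0.22 by edgeR. In ACJ fish pdia2 was between 12 and 91.4 CPM, and in FM fish between 17 and 66.7 CPM.

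Of all genes tested, 18 (0.056%) had ranges that did not overlap between the diets, 5 with the ICJ fish above (0.0155%) and 13 with the ICJ fish below (0.0404%). Without ICJ replicate 4 there were 43 such genes (0.133%), 15 above (0.0462%) and 28 below (0.0863%). Of the 18 genes, those with a gene symbol and not only an identifier were pdia2, purg, rab10 and bmi1a, all lower in ICJ fish. They were singled out of all genes tested by their lack of overlap, so this is no test of the diet. Among this many genes, some would separate in this way if no gene differed. How many was not worked out. The gene rab10, on chromosome 6 from 95565220 to 95591002, codes for a small GTPase of vesicle traffic. Its level was between 41.7 and 49.8 CPM, median 45.9 CPM, in SBM fish and between 36 and 38.8 CPM, median 37.1 CPM, in ICJ fish. The 6 ICJ fish lay in a narrow band below all SBM fish, and the log2 fold change was -0.29 ± 0.10 (SE), with an adjusted p of 0.863 by edgeR, and -0.28 ± 0.11 without ICJ replicate 4. For purg, a gene for a nucleic acid-binding protein of the Pur family, the range was 3.69 to 5.06 CPM in SBM fish and 2.37 to 3.16 CPM in ICJ fish, with a log2 fold change of -0.65 ± 0.23, and of -0.69 ± 0.25 without ICJ replicate 4. Levels of bmi1a, which codes for a Polycomb protein, were between 6.97 and 8.23 CPM and between 4.96 and 6.61 CPM, and its log2 fold change was -0.33 ± 0.15 with and -0.37 ± 0.16 without that fish. Another annotated gene overlaps bmi1a on the same strand. In ACJ fish, rab10 was between 40.9 and 53.9 CPM and purg between 3.25 and 4.95 CPM, above every ICJ fish in both genes, while the lowest FM fish was at 33.0 CPM for rab10, below every ICJ fish.

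The 14 other genes without overlap have only an identifier here, and 2 of them are given here, picked after the values were seen. LOC106577537, on chromosome 18, was between 26.9 and 66.5 CPM in SBM fish and between 71.5 and 285 CPM in ICJ fish, with the highest levels in ICJ replicates 2 and 6. It overlaps other annotated genes on both strands. LOC106601458, on chromosome 6, was between 6.28 and 15.0 CPM in SBM fish and between 1.54 and 3.85 CPM in ICJ fish, with a log2 fold change of -1.69, and of -1.72 without ICJ replicate 4.

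Of genes with a symbol, a mean of at least 1 CPM and higher levels in ICJ fish, keap1a had the smallest unadjusted p without ICJ replicate 4. Its product holds back the transcription factor Nrf2, which turns on antioxidant genes. The level of keap1a, on chromosome 16 from 72462709 to 72483638, was between 32.3 and 60.1 CPM, median 40.5 CPM, in SBM fish and between 40.0 and 76.7 CPM, median 66.9 CPM, in ICJ fish. ICJ replicates 1, 2, 3 and 5 were above all SBM fish, while ICJ replicates 4 and 6 lay within their range. The log2 fold change was 0.55 ± 0.19 (SE, adjusted p = 0.846 by edgeR), and 0.64 ± 0.18 without ICJ replicate 4 (adjusted p = 1.00 by edgeR). FM fish were between 37.7 and 79.0 CPM, across the ranges of both diets.

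Among the other 18 genes of oxidative stress defence that were tested without ICJ replicate 4, gsr, the gene of glutathione reductase, came next by unadjusted p. Its log2 fold change was 0.35 ± 0.21 and, without ICJ replicate 4, 0.42 ± 0.21. Levels of gsr were 167, 153 and 193 CPM in ICJ replicates 1, 3 and 5, between 93.7 and 96.6 CPM in the other 3 ICJ fish and between 86.9 and 136 CPM in SBM fish. The list as a whole had 12 of 18 genes higher and a median of 0.09, and 12 of 19 and 0.18 without ICJ replicate 4.

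The level of arhgap35a was between 3.14 and 8.04 CPM, median 7.04 CPM, in SBM fish and between 5.71 and 19.3 CPM, median 14.8 CPM, in ICJ fish. Only ICJ replicate 3 fell within the SBM range, and the log2 fold change was 1.11 ± 0.35 (SE, adjusted p = 0.825 by edgeR) with all fish and 1.2 ± 0.36 without ICJ replicate 4. In FM fish arhgap35a was between 10.3 and 26.5 CPM, above every SBM fish, and in ACJ fish between 5.39 and 13.5 CPM. For csn7a, a subunit of the COP9 signalosome that regulates protein degradation, the range was 19.4 to 27.0 CPM in SBM fish and 24.6 to 33.9 CPM in ICJ fish, with a log2 fold change of 0.40 ± 0.11, and of 0.37 ± 0.12 without ICJ replicate 4. For puf60a, a splicing factor, it was 11.3 to 14.6 CPM and 13.9 to 17.9 CPM, with a log2 fold change of 0.30 ± 0.10 with and 0.32 ± 0.10 without that fish. In both genes the diets overlapped by a few fish only. The other named genes with higher levels were prrc1 (log2 fold change 0.28, and 0.35 without ICJ replicate 4), alg8 of N-glycan assembly (0.21 and 0.28), panx1b of the pannexin channels (0.85 and 0.70), pdlim3b (2.43 and 2.19), pyy (1.49 and 1.75) and si:dkey-193c22.1 (5.19 and 5.44), and with all fish the smallest adjusted p among these was 0.805 by edgeR.

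Among genes with lower levels, slc16a10, a transporter of aromatic amino acids, was between 3.78 and 16 CPM, median 6.33 CPM, in SBM fish and between 2.86 and 4.86 CPM, median 3.15 CPM, in ICJ fish. Only SBM replicate 2 lay within the ICJ range. The log2 fold change was -1.12 ± 0.32 (SE, adjusted p = 0.673 by edgeR), and -1.06 ± 0.34 without ICJ replicate 4. The transcription factor gene mef2aa was between 9.92 and 17.4 CPM in SBM fish and between 4.89 and 11.5 CPM in ICJ fish, where ICJ replicate 4 was the lowest, and its log2 fold change was -0.58 ± 0.16 with this fish and -0.46 ± 0.15 without it. For mid1ip1l, whose mammalian counterpart promotes fatty acid synthesis, the range was 15.9 to 92.5 CPM in SBM fish and 15.6 to 27.4 CPM in ICJ fish. SBM replicate 5 was the highest fish for mid1ip1l, and the log2 fold change of -0.91 moved to -0.47 without it.

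**Figure D2:**
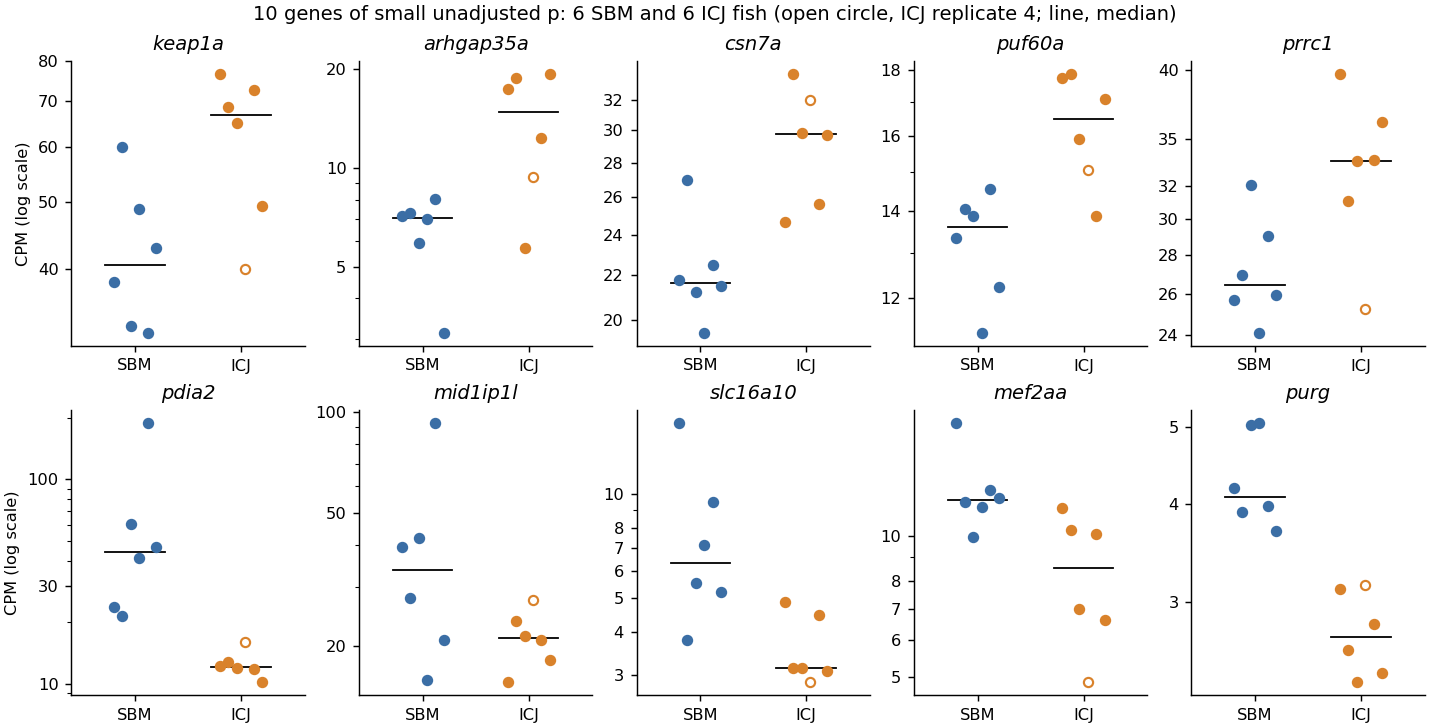
CPM (log scale, not starting at 0) of 10 genes with small unadjusted p in 6 SBM and 6 ICJ fish, points for fish, lines for medians and an open circle for ICJ replicate 4. The diets do not overlap for pdia2 and purg, and overlap by 1 to several fish in the other genes.

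The posterior Hox gene hoxc9aa was between 0.65 and 2.69 CPM, median 1.24 CPM, in SBM fish, between 0.256 and 0.77 CPM in 5 ICJ fish and at 4.17 CPM in ICJ replicate 4. Its log2 fold change was -0.32 ± 0.57 (SE), and -1.44 ± 0.52 without ICJ replicate 4. Other named genes with lower levels were highest in the fish with high pancreatic enzyme genes. Levels of bhmt, which codes for betaine-homocysteine methyltransferase, were 124 CPM in SBM replicate 5 and 11.7 CPM in SBM replicate 3. The other 4 SBM fish had between 0.115 and 1.34 CPM, and ICJ fish between 0.75 and 3.75 CPM. SBM replicates 3 and 5 thus set the log2 fold change of -3.59, which was 1.74 without them. For the pancreatic protease gene ctrl it was -4.58 with and 0.75 without SBM replicates 3 and 5, and for vmo1 it was -5.34 and 0.91. The gene ftcd of histidine breakdown was at 10.1 CPM in SBM replicate 5, at 1.93 CPM in SBM replicate 3 and between 0.238 and 0.755 CPM in all other fish. All 8 pancreatic enzyme genes had lower fitted levels in ICJ fish, with a median log2 fold change of -5.06, and all 8 had higher ones, with a median of 1.96, once SBM replicates 3 and 5 were left out.

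The genes called by DESeq2 mostly rested on 1 to 3 fish. ENSSSAG00000004524 had 0 counts in all SBM fish, 6.44 CPM in ICJ replicate 1, 2.4 CPM in ICJ replicate 5 and 0.477 CPM or less in the other ICJ fish. It lies on chromosome 3 from 57855342 to 57857926, beside hoxb13aa at 57832685 to 57834554, and hoxb13aa was high in the same fish, at 23.2 CPM in ICJ replicate 1 and 8.17 CPM in ICJ replicate 5. FM fish reached 27.0 CPM for this gene and 105 CPM for hoxb13aa. ENSSSAG00000088703 had 9.69, 4.99 and 9.26 CPM in SBM replicates 2, 3 and 4 and 0 counts in the other 3 SBM fish and in all ICJ fish. ENSSSAG00000099294 was at 165 and 36.2 CPM in SBM replicates 5 and 3 and at 4.24 CPM or less elsewhere. LOC106564846 and LOC106571318 were at 73.5 and 57.7 CPM in ICJ replicate 4 and at 3.23 CPM or less in the other fish. LOC106583825 was at 32.9 and 31.4 CPM in ICJ replicates 2 and 6 and at 1.22 CPM or less in the other 10 fish, and DESeq2 also called it without ICJ replicate 4. Besides pdia2, only LOC106587207 was lower across most fish, between 64.5 and 153 CPM, median 102 CPM, in SBM fish and between 33.2 and 66.7 CPM, median 51.4 CPM, in ICJ fish. Its log2 fold change was -1.11 ± 0.24 (SE), with an adjusted p of 0.456 by edgeR and 0.042 by DESeq2, and of 0.303 by DESeq2 without ICJ replicate 4. LOC106610418, called by DESeq2 only without ICJ replicate 4, was at 12.5, 12 and 12.8 CPM in SBM replicates 1 and 6 and ICJ replicate 4 and at 0 in the other fish.

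Genes of endocytosis and the lysosome, the machinery of the vacuoles of the DI, leaned to lower levels in ICJ fish. Of 31 genes tested, 26 had a lower fitted level and 9 of these an unadjusted p under 0.05, and the median log2 fold change was -0.52. Over all genes 1.9% were lower at that p and the median was 0.0106. No gene of the list was called by edgeR. Without ICJ replicate 4, 26 had a lower fitted level, 2 of them at an unadjusted p under 0.05 (over all genes 1.53%), and the median was -0.33. Leaving out each fish in turn gave between 26 and 27 lower genes and medians between -0.71 and -0.33, and with ICJ replicate 4 also left out between 24 and 28 lower genes and medians between -0.56 and -0.21.

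The smallest unadjusted p of the list were those of tfeb, which codes for a transcription factor of lysosomal genes, and glb1, the gene of a β-galactosidase. The level of tfeb was between 5.20 and 130 CPM, median 48.0 CPM, in SBM fish and between 4.71 and 48.1 CPM, median 15.8 CPM, in ICJ fish. SBM replicates 1 and 5 were the highest and the diets overlapped widely, with a log2 fold change of -1.63 ± 0.62 (SE, adjusted p = 0.939 by edgeR) and of -1.42 ± 0.63 without ICJ replicate 4. Levels of glb1, which overlaps other annotated genes, were between 637 and 3570.4 CPM, median 1295 CPM, in SBM fish and between 40.0 and 1107 CPM, median 835 CPM, in ICJ fish. For glb1 the log2 fold change was -1.30 ± 0.56, and it was -0.89 when SBM replicate 1, its highest fish, was left out. SBM replicate 2 was within the ICJ range for glb1, and ICJ replicates 4 and 6 were far below every SBM fish.

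ICJ replicates 4 and 6 were also low, and SBM replicate 1 high, for several other genes of the list. Cubilin, coded by cubn, is the receptor that binds proteins for uptake together with megalin. It was between 1334 and 5964 CPM in SBM fish, at 24.8 CPM in ICJ replicate 4, at 203 CPM in ICJ replicate 6 and between 1909 and 2650 CPM in the other 4 ICJ fish. For legumain, a lysosomal protease coded by lgmn, the range was 5100.5 to 14985 CPM in SBM fish, 517 CPM in ICJ replicate 4, 1059 CPM in ICJ replicate 6 and 5029 to 7563 CPM in the other ICJ fish. The megalin gene lrp2b was at 5.90 and 2.24 CPM in ICJ replicates 4 and 6 and at 67.2 CPM or more in all others, while the other megalin gene, lrp2a, was highest in ICJ replicate 6 at 66.1 CPM. The log2 fold change was -0.90 ± 0.55 for cubn and -0.93 ± 0.49 for lgmn, and -0.64 ± 0.42 and -0.69 ± 0.45 without ICJ replicate 4. SBM replicate 1 was the highest fish for cubn, lgmn, glb1, hexb and nagab. Another annotated gene overlaps cubn on the same strand, and the same holds for hexb. Summed over the list, levels were between 19174 and 74784 CPM in SBM fish, 7029 and 10251 CPM in ICJ replicates 4 and 6, and between 24449 and 32420 CPM in the other 4 ICJ fish, within the range of SBM fish. Posterior Hox genes were lowest of the 12 fish in ICJ replicate 6. With their mean level as a covariate, 26 of the 31 genes of endocytosis and the lysosome had a lower fitted level, 14 of the 31 had an unadjusted p under 0.05, the median was -0.64, and edgeR called 0 genes of all tested. In that fit 2051 of all 32157 genes tested had an unadjusted p under 0.05, more than the 1556 without the covariate. ICJ replicate 4 was kept in that fit, and the covariate was not fitted without this fish. In ACJ fish, which ate the same yeast after autolysis, cubn was between 977 and 3538 CPM and glb1 between 532 and 3503 CPM, across most of the SBM range.

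**Figure D3:**
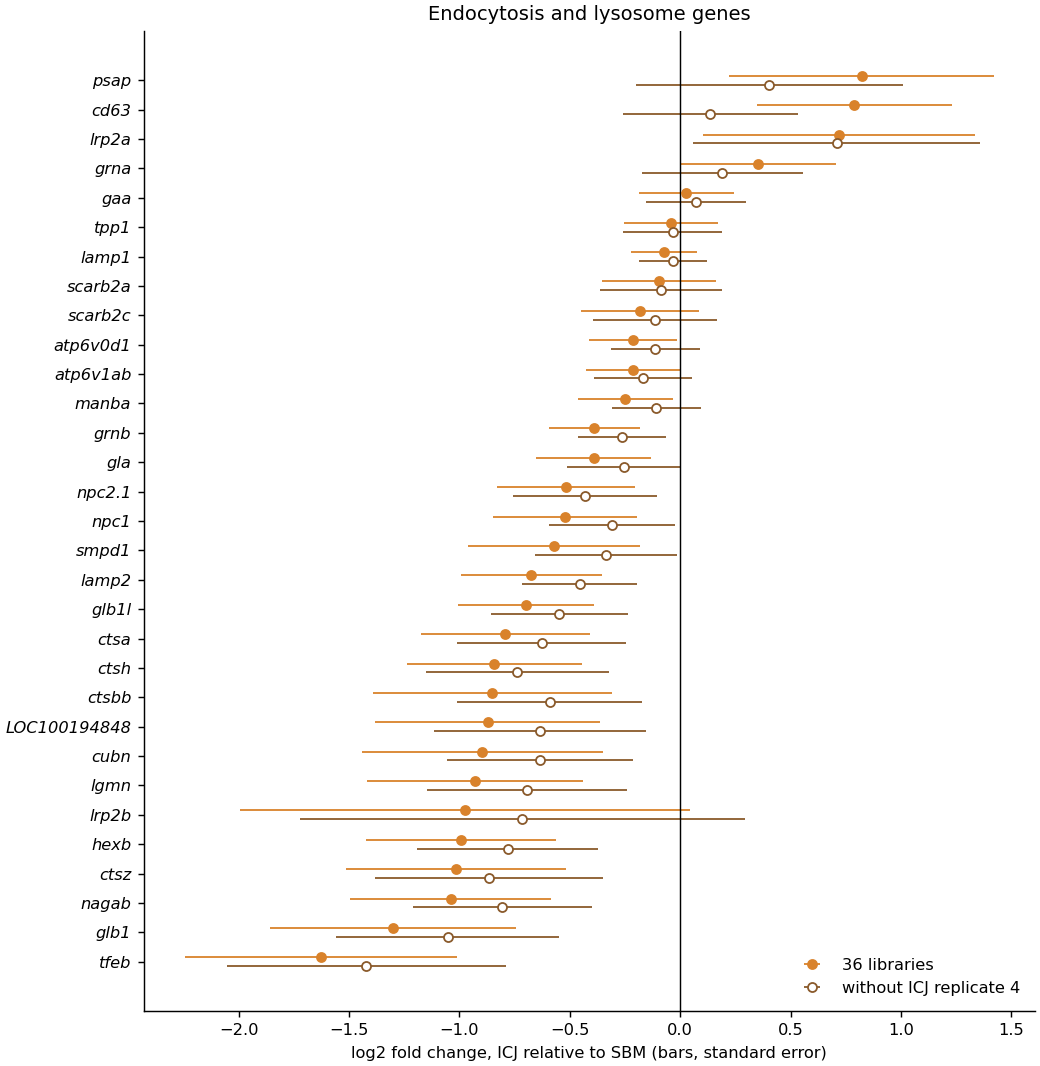
Log2 fold change, ICJ relative to SBM, of the 31 tested genes of endocytosis and the lysosome, with bars of 1 standard error, filled for all 36 DI libraries and open without ICJ replicate 4. In both fits 26 of the 31 genes lie below 0.

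Genes of enterocyte absorption had 13 of 17 lower levels and a median of -0.29, and without ICJ replicate 4 they had 10 of 17 and -0.09. With the posterior Hox covariate and all fish they had 16 of 17 and -0.26. No gene of the list had an unadjusted p under 0.05 in these 3 fits. Apart from ICJ replicate 4, differences between fish of a diet were large. Levels of apoa1 were between 33.9 and 4037 CPM, median 688 CPM, in SBM fish and, in ICJ fish, 8664 and 3954 CPM in replicates 2 and 6 and 343 CPM or less in the other 4. The peptide transporter gene slc15a1 was at 65.4 and 110 CPM in the same ICJ replicates 2 and 6, at 0.257 CPM or less in the other ICJ fish and at 20.7 and 10.7 CPM in SBM replicates 4 and 1. The same ICJ replicates 2 and 6 carried the higher levels of the gut hormone gene pyy, 11.3 and 14.5 CPM against 3.14 CPM or less in the other 10 fish, and of si:dkey-193c22.1, 27.7 and 54.8 CPM against 0.633 CPM or less. In FM fish pyy reached 28.5 CPM and in ACJ fish 11.2 CPM.

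Posterior Hox genes had 17 of 24 higher levels, 5 at an unadjusted p under 0.05 (over all genes 2.94% were higher at that p), and a median of 0.37. Those with a p under this limit were hoxb9ab, hoxb13aa, hoxd11a, hoxd12a and hoxd13a. ICJ replicates 1 and 5 held the highest levels of hoxb13aa, hoxd11a and hoxd12a, and hoxb13aa was at 0.173 CPM or less in every SBM fish. The level of hoxb9ab was 5.18 CPM in ICJ replicate 4 and 0.424 CPM or less in the other 11 fish. Without ICJ replicate 4, 15 of 24 had higher levels, 4 genes were higher and 1 was lower at that p (over all genes 0.922% and 1.53%), the median was 0.23, and with ICJ replicate 5 left out as well it was -0.21. When only the SBM and ICJ libraries were fitted, 13 of these genes passed the count filter. Of them 7 were higher, 0 had a p under this limit and the median was 0.05. Without ICJ replicate 4 that fit had 7 of 14 higher, 2 at that p (over all genes 499 of 29414) and a median of -0.01.

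Taurine is an amino sulfonic acid that salmon use to conjugate bile acids and to balance osmotic pressure. The taurine transporter gene slc6a6 was between 234 and 553 CPM, median 353 CPM, in SBM fish and between 58.4 and 541 CPM, median 345 CPM, in ICJ fish. The diets overlapped, and ICJ replicates 4 and 6 were below all SBM fish, at 58.4 and 183 CPM. The log2 fold change was -0.13 ± 0.34 (SE, 95% interval -0.82 to 0.56), and 0.09 ± 0.29 without ICJ replicate 4, and in FM fish slc6a6 was between 113 and 231 CPM. The paralogue slc6a6b was between 133 and 337 CPM in SBM fish and between 120 and 391 CPM in ICJ fish, with a log2 fold change of 0.10 ± 0.29, and of 0.24 ± 0.28 without ICJ replicate 4. Another gene, LOC106571856, described as taurine transporter-like, was at 120 and 148 CPM in ICJ replicates 1 and 5, between 14.7 and 54.7 CPM in the other ICJ fish and between 7.90 and 77.7 CPM in SBM fish, with a log2 fold change of 1.21 ± 0.61 with and 1.35 ± 0.63 without ICJ replicate 4.

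The gene gadl1, whose mammalian counterpart is a decarboxylase of the taurine and β-alanine pathways, was between 6.53 and 41.4 CPM, median 10.1 CPM, in SBM fish. In ICJ fish it was at 59.1, 137 and 51.4 CPM in replicates 1, 3 and 5 and between 3.23 and 4.94 CPM in the other 3. The ICJ fish thus lay on both sides of the SBM fish, and the log2 fold change was 1.35 ± 0.81 (SE, 95% interval -0.30 to 2.99, adjusted p = 0.987 by edgeR), 1.58 ± 0.81 without ICJ replicate 4 and 0.51 without ICJ replicate 3. ICJ replicates 1, 3 and 5 were also the fish with the highest gsr. FM fish were all at 2.05 CPM or less for gadl1, and ACJ fish between 0.88 and 70.3 CPM. The taurine and sulfur amino acid list had 5 of 9 genes lower and a median of -0.04, and 3 of 9 and 0.09 without ICJ replicate 4. Of its 14 entries 7 found a gene, and csad, a gene of taurine synthesis, could not be paired with a gene.

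LOC106573723, which the study names nup93, and LOC100195319, which carries nup93 as a synonym, code for a nucleoporin and were lower in SBM fish than in FM fish (adjusted p = 0.0297 and 0.0331 by edgeR). For LOC106573723 levels were between 538 and 2286 CPM in FM fish, between 45.4 and 130 CPM, median 90.2 CPM, in SBM fish and between 54.9 and 522 CPM, median 131 CPM, in ICJ fish. ICJ replicates 2 and 4 were far above all SBM fish at 522 and 265 CPM, ICJ replicates 3 and 6 lay within 2 CPM of the highest SBM fish, and the other ICJ fish were within the SBM range. Between ICJ and SBM fish the log2 fold change was 1.13 ± 0.63 (SE, adjusted p = 0.987 by edgeR), and 1.02 ± 0.66 without ICJ replicate 4. For LOC100195319 the range was 109 to 144 CPM in SBM fish and 69.0 to 364 CPM in ICJ fish, where 5 of 6 fish were above all SBM fish. Its log2 fold change was 0.84 ± 0.39 with and 0.77 ± 0.41 without ICJ replicate 4, and FM fish were between 198 and 1083 CPM.

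Of the barrier genes, the water channel gene aqp10b was between 5.20 and 18.4 CPM in SBM fish, between 3.91 and 24.7 CPM in 5 ICJ fish and at 0 in ICJ replicate 4. Its log2 fold change was -0.22 ± 0.52 with and 0.04 ± 0.39 without this fish. Another water channel gene, aqp8, was between 20.2 and 134 CPM in 5 SBM fish and at 0 in SBM replicate 2, and in ICJ fish it was at 31.6 CPM in replicate 2 and at 9.11 CPM or less in the other 5. For aqp8 the log2 fold change was -2.54 ± 1.12 (SE, adjusted p = 0.987 by edgeR), and -2.28 ± 1.12 without ICJ replicate 4. The tight junction gene cldn12 overlapped between the diets, at 3.27 to 7.19 CPM and 2.54 to 9.15 CPM. The list of tight junctions and water channels had 11 of 21 genes higher and a median of 0.01 in both fits.

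For vim, which codes for the filament protein vimentin of mesenchymal cells, levels were between 16.7 and 84.3 CPM, median 30.1 CPM, in SBM fish and between 14.9 and 83.0 CPM, median 66.5 CPM, in ICJ fish. The ranges coincided although 4 ICJ fish were above 5 of the SBM fish, and the log2 fold change was 0.52 ± 0.50 (SE, 95% interval -0.50 to 1.53), and 0.49 ± 0.53 without ICJ replicate 4. The integrin gene LOC106607266, annotated by the study as itgb3a, was between 1.5 and 10.5 CPM and between 2.2 and 4.88 CPM, with a log2 fold change of -0.31 ± 0.48 with and -0.20 ± 0.50 without that fish. The list of wound healing and matrix had 9 of 10 genes higher and a median of 0.32, and 7 of 10 and 0.07 without ICJ replicate 4. With ICJ replicate 4 left out, the median was -0.30 without ICJ replicate 6 and 0.33 without SBM replicate 3. It was also below 0 without SBM replicate 1, 2, 4 or 6, and above 0 without any other fish.

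**Figure D4:**
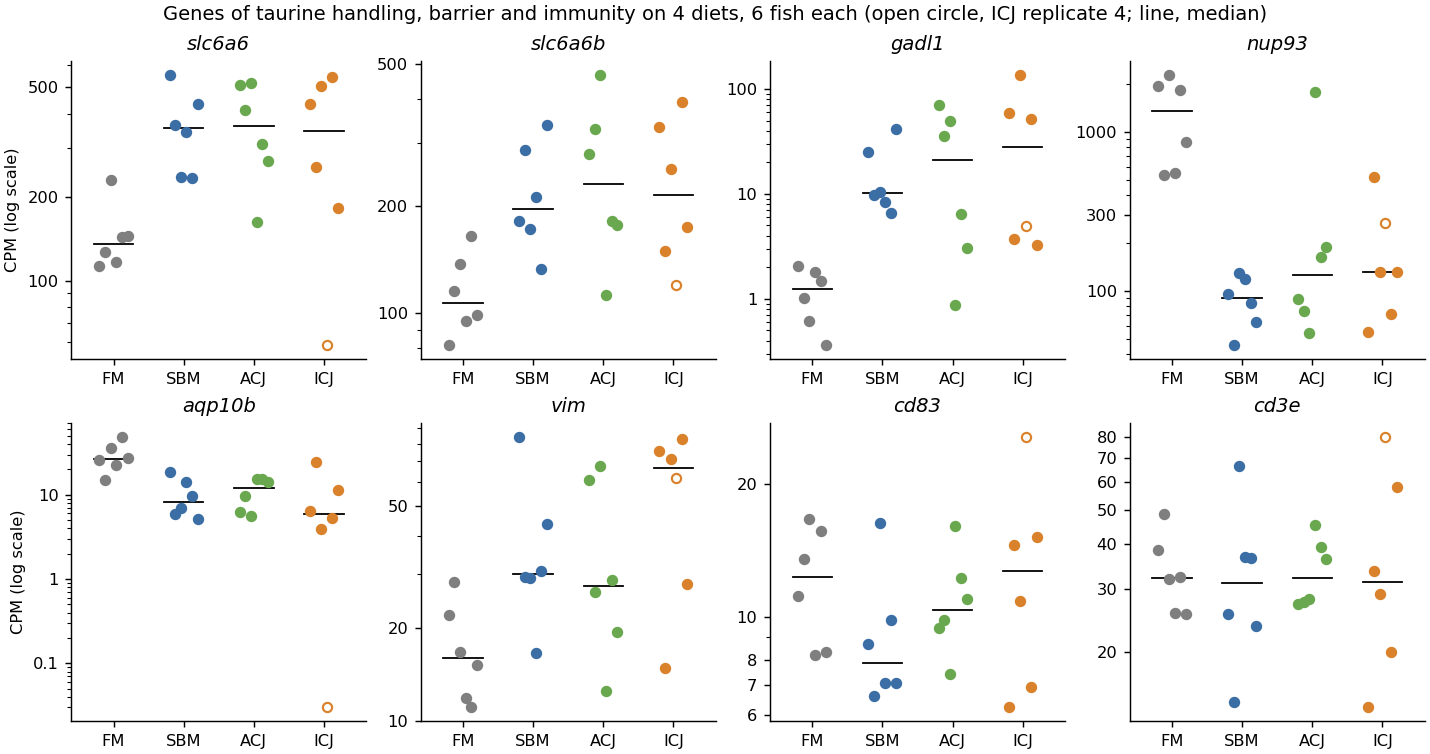
CPM (log scale) of 8 genes of taurine handling, the barrier and immunity in 6 fish each of the FM, SBM, ACJ and ICJ diets, with lines for medians and an open circle for ICJ replicate 4, whose aqp10b count of 0 is drawn at 0.03 CPM. SBM, ACJ and ICJ fish overlap in every panel, and FM fish lie apart from SBM fish for slc6a6, gadl1 and nup93 (LOC106573723).

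With all 12 fish, immune genes mostly had higher fitted levels in ICJ fish, and the size of this depended on single fish. Its direction depended on which fish were left out together and, for T cells, on single fish. Markers of macrophages and granulocytes had 11 of 12 higher levels and a median of 0.46, and 8 of 12 and 0.16 without ICJ replicate 4. None had an unadjusted p under 0.05. Their summed level was 27142 CPM in ICJ replicate 4 and 19221 CPM in ICJ replicate 6, but also 18351 CPM in SBM replicate 3, and the lowest of the 12 fish was ICJ replicate 1 at 539 CPM. With ICJ replicate 4 left out, the median was 0.84 without SBM replicate 3 and -0.25 without ICJ replicate 6. The lysozyme gene lyz, a marker of these cells, was between 237 and 16471 CPM in SBM fish and between 45.3 and 25056 CPM in ICJ fish, and its log2 fold change was 1.12 ± 0.95 with and 0.62 ± 0.98 without ICJ replicate 4. It was highest in ICJ replicate 4 and, of SBM fish, in replicate 3, and held most of the summed level in both. Averaged over the 12 tested genes, log2 levels relative to the mean of the 12 fish were between -2.10 in ICJ replicate 1 and 1.52 in ICJ replicate 4.

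B cell and plasma cell markers had 6 of 6 higher levels and a median of 0.51, and 5 of 6 and 0.21 without ICJ replicate 4. T cell markers had 7 of 10 higher levels and a median of 0.14, and 3 of 10 and -0.14 without ICJ replicate 4. The T cell receptor complex gene cd3e was between 14.5 and 66.5 CPM in SBM fish and between 14 and 80.2 CPM in ICJ fish, with ICJ replicate 4 the highest. Its log2 fold change was 0.20 ± 0.32 with and -0.14 ± 0.31 without this fish. The cytotoxic T cell gene cd8a was between 3.13 and 10.6 CPM, median 7.82 CPM, in SBM fish and between 2.25 and 8.15 CPM, median 5.72 CPM, in ICJ fish. The diets overlapped, and the log2 fold change was -0.42 ± 0.30 (SE, 95% interval -1.02 to 0.18) with and -0.51 ± 0.31 without ICJ replicate 4.

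Cytokines and their receptors had 16 of 19 higher levels, 2 at an unadjusted p under 0.05 (over all genes 2.94% were higher at that p), and a median of 0.45, and 15 of 19, none at that p, and 0.07 without ICJ replicate 4. The 2 genes were il17d and hamp. Levels of il17d were 26.6 CPM in ICJ replicate 4 and 2.29 CPM or less in SBM fish. The gene hamp codes for the antimicrobial peptide and iron regulator hepcidin, which the list holds although it is neither a cytokine nor a receptor. The level of hamp was between 0.474 and 15.1 CPM, median 3.5 CPM, in SBM fish, and in ICJ fish it was at 36.6, 63.5 and 30.9 CPM in replicates 3, 4 and 6 and at 7.61 CPM or less in the other 3. Genes for recognition of microbes and the yeast cell wall had 13 of 16 higher levels and a median of 0.36, and 12 of 16 and 0.13 without ICJ replicate 4. Of these, nfkbiab, an inhibitor of NF-κB, was between 17.8 and 47.8 CPM in SBM fish and between 20.7 and 73.6 CPM in ICJ fish, with a log2 fold change of 0.66 ± 0.27 with and 0.42 ± 0.27 without ICJ replicate 4.

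The tumour necrosis factor gene LOC100136509 was between 0.316 and 8.90 CPM in SBM fish and between 0.153 and 11.5 CPM in ICJ fish, with a log2 fold change of 0.81 ± 0.67, and of 0.10 ± 0.66 without ICJ replicate 4, its highest fish. The interleukin 12 subunit gene il12b2 was at 51.1 CPM in ICJ replicate 4 and at 3.08 CPM or less in the other 11 fish, and the log2 fold change went from 2.72 to -0.26 without it. The paralogues LOC106612126 and LOC106567437 had log2 fold changes of 0.91 ± 0.74 and -0.29 ± 0.35, and of 0.35 ± 0.74 and -0.26 ± 0.37 without ICJ replicate 4. For cd83, a marker of mature dendritic cells (LOC106605367), it was 0.51 ± 0.28 with and 0.22 ± 0.26 without ICJ replicate 4, and for tlr7, a receptor of viral RNA, -0.32 ± 0.43 and -0.74 ± 0.43. For the interferon gamma receptor genes ifngr2a and ifngr2b it was 0.79 ± 0.53 and 0.25 ± 0.15, and 0.13 ± 0.51 and 0.07 ± 0.13 without ICJ replicate 4. The genes il12a and ifng had too few counts to be tested.

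The direction of these immune medians changed when ICJ replicate 4 and certain further fish were left out together. Without ICJ replicate 4 alone or ICJ replicate 6 alone, only the T cell median changed sign. With both left out, 0 of 6 genes of B cells and plasma cells had a higher fitted level with a median of -0.44, 0 of 10 of T cells with -0.48, 2 of 12 of macrophages and granulocytes with -0.25, 6 of 19 of cytokines and their receptors with -0.27 and 2 of 16 recognition genes with -0.20. Without ICJ replicate 6 alone, the medians were 0.28, -0.02, 0.24, 0.37 and 0.20 in the same order. With the posterior Hox covariate and all fish they were 0.67, 0.16, 0.56, 0.45 and 0.41. With ICJ replicate 4 left out, the macrophage and granulocyte median was -0.0084 without SBM replicate 1, -0.057 without SBM replicate 2, -0.012 without SBM replicate 6 and -0.044 without ICJ replicate 3. The cytokine and receptor median was then -0.056, -0.029, -0.013 and -0.055. Apart from these fish and ICJ replicate 6, leaving out any other fish gave positive values of both.

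The immune medians moved the other way without SBM replicates 3 and 5, the fish with high pancreatic enzyme genes, which also had the highest summed T cell, B cell and macrophage markers of the SBM fish. Without both, the median log2 fold change was 2.18 for B cells and plasma cells, 1.37 for macrophages and granulocytes, 1.00 for T cells, 1.00 for cytokines and their receptors and 0.92 for recognition genes. With ICJ replicate 4 also left out they were 1.8, 1.16, 0.32, 0.60 and 0.65. Unadjusted p under 0.05 then became 4363 and 2265 genes, and edgeR still called 0, with smallest adjusted p of 0.182 and 0.680. Fish were left out here after their values were seen, so these values are no test of the diet.

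**Figure D5:**
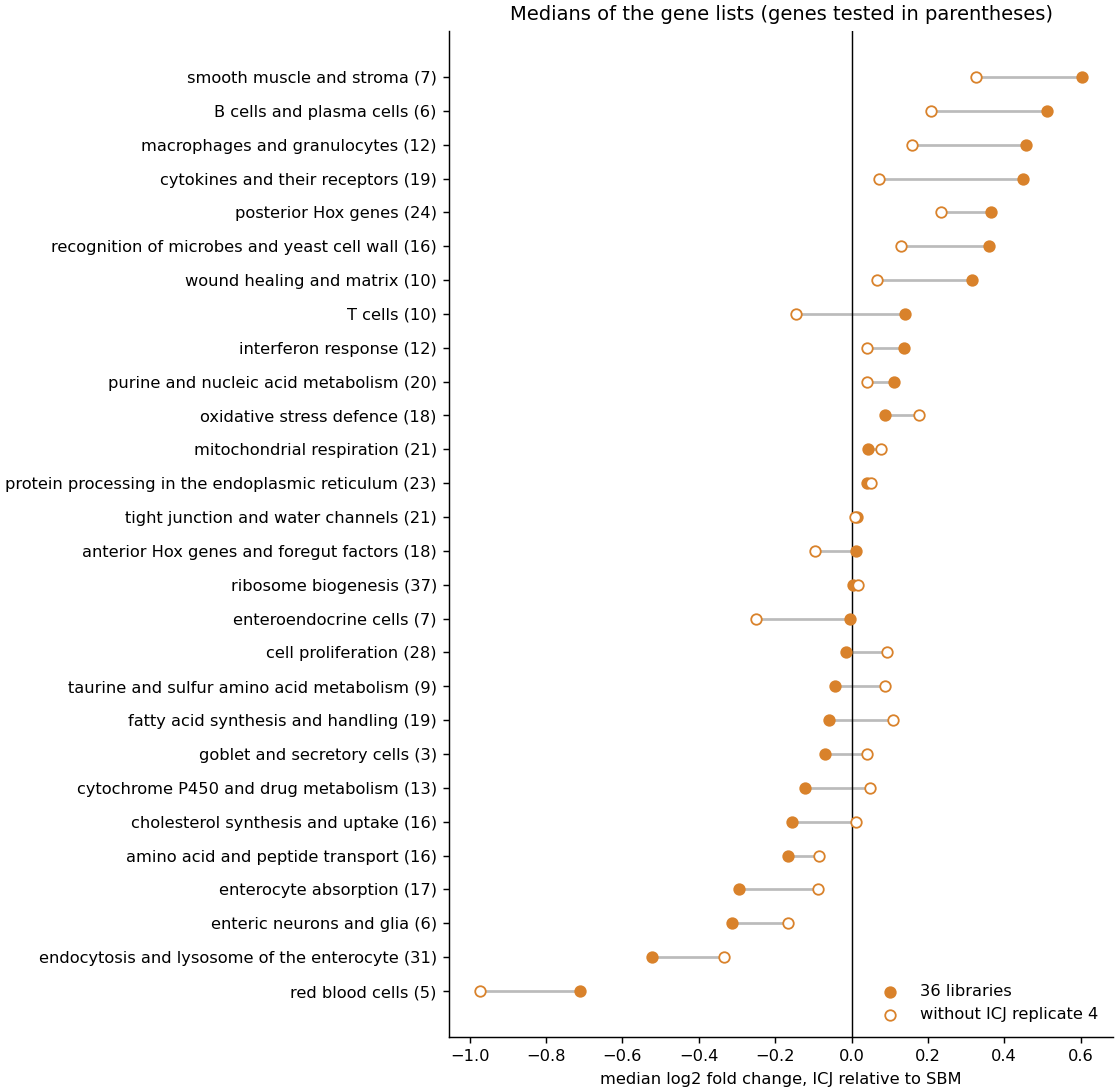
Median log2 fold change, ICJ relative to SBM, of 28 gene lists with the number of tested genes, filled with all 36 DI libraries and open without ICJ replicate 4. Without this fish 8 medians change sign, while those of red blood cells, at -0.97, and of endocytosis and the lysosome, at -0.33, remain the lowest 2.

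Of the other lists, smooth muscle and stroma had 6 of 7 higher levels and a median of 0.60 (0.33 without ICJ replicate 4), and markers of red blood cells had 5 of 5 lower levels and a median of -0.71 (-0.97). The heme synthesis gene alas2 of red blood cells was highest at 72.2 and 51.8 CPM in SBM replicates 3 and 5, and without these fish the median of the red blood cell list was 0.0049. The single tested genes of 2 lists were cpb1 of the exocrine pancreas (-5.44, and -5.18 without ICJ replicate 4) and hpxb of the liver (0.54 and 0.64). In cholesterol synthesis and uptake 13 of 16 genes were lower with a median of -0.15, and 8 of 16 with 0.01 without ICJ replicate 4. Cell proliferation had 13 of 28 genes higher with a median of -0.02, and 21 of 28 with 0.09 without ICJ replicate 4. Its myc, a transcription factor gene of growing cells, was between 20.8 and 31.6 CPM in SBM fish and between 28.1 and 42.4 CPM in ICJ fish, with a log2 fold change of 0.34 ± 0.13 and of 0.25 ± 0.13 without ICJ replicate 4. With ICJ replicates 1 and 4 left out, cell proliferation had 12 of 28 genes higher and a median of -0.04. Smooth muscle and stroma then had 4 of 8 and -0.0096. Leaving out any other fish beside ICJ replicate 4 kept both medians above 0.

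Medians near 0 were found with all fish, and without ICJ replicate 4, for interferon response (0.14 and 0.04), purine and nucleic acid metabolism (0.11 and 0.04), mitochondrial respiration (0.04 and 0.08), protein processing in the endoplasmic reticulum (0.04 and 0.05), anterior Hox genes and foregut factors (0.01 and -0.10), ribosome biogenesis (0.0034 and 0.02), fatty acid synthesis and handling (-0.06 and 0.11), goblet and secretory cells (-0.07 and 0.04), cytochrome P450 and drug metabolism (-0.12 and 0.05) and amino acid and peptide transport (-0.17 and -0.08). The median of enteroendocrine cells was -0.0051 with all fish, with 3 of 7 genes higher and 2 of these at an unadjusted p under 0.05 (over all genes 2.94%). Without ICJ replicate 4 it was -0.25, with 6 of 8 genes lower. At that p, 1 gene was then higher and 1 lower (over all genes 0.922% and 1.53%). The 6 tested genes of enteric neurons and glia, which had low levels, gave -0.31 and -0.17.

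The other comparisons of the yeast used the same fish and are given side by side. With edgeR, ACJ fish and SBM fish gave 0 DEGs with 324 genes at an unadjusted p under 0.05, and ICJ fish and ACJ fish gave 0 DEGs with 1643, and without ICJ replicate 4 these were 0 DEGs with 430 and 0 DEGs with 1263. Against FM fish there were 6 DEGs for SBM fish and 15 for ICJ fish, and without ICJ replicate 4 these were 13 and 15. The difference between the counts was not tested.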

How the data were processed

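Total RNA of the DI was sequenced from TruSeq stranded mRNA libraries. Per the file headers and the methods, the authors trimmed the reads, aligned them to Ssal_v3.1 with STAR and RSEM and deposited raw counts of fragments per gene from featureCounts, run for reverse-stranded pairs. The submitters' notes give featureCounts 1.4.6, whereas the program line of the file headers names another version. No gene that shares reads with a near-identical copy was treated separately, so paralogues of this duplicated genome are uncertain.

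The counts of 69389 genes in 36 DI libraries of 6 diets were fitted with edgeR 4.0.16 (R 4.3.3; filterByExpr by diet, TMM, robust quasi-likelihood test), with diet as the only term, and ICJ was compared with SBM. The study's methods name DESeq2, and DESeq2 1.42.0 was run as an alternative. P-values were adjusted by Benjamini-Hochberg over all genes tested. CPM were scaled by TMM and are not per gene length, so levels are not compared between genes. Intervals are 95%. P-values measure the spread between fish, and 2 fish shared a tank. No 2 libraries held identical values.

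Ensembl genes were paired with RefSeq genes of the same build when their spans overlapped by at least 50%. This paired 34983 genes, of which 8968 had a gene name and not only a LOC identifier. List members were matched by symbol or, for genes with a LOC identifier, by synonym, and many entries found no gene. Entries that found a gene were 1 of 16 for exocrine pancreas, 2 of 12 for goblet and secretory cells and 6 of 17 for B cells and plasma cells. They were 14 of 29 for enterocyte absorption and 15 of 17 for posterior Hox genes. A list may thus not stand for its whole cell type or pathway. Genes were named by rule: all DEGs or, with fewer than 10 in a direction, the 10 genes of smallest unadjusted p without ICJ replicate 4 with a mean of at least 1 CPM and a symbol, the genes of the study's account, the 2 genes of smallest p in each list, and 5 genes each furthest above and below in ICJ replicate 4. The libraries, lists and genes were chosen with earlier results of these data known.

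Alternatives were RLE size factors, no filter, only the SBM and ICJ libraries, a fold change limit, a replicate block, counts summed over tanks inferred from fish numbers, a posterior Hox covariate, DESeq2, each fish left out in turn and, chosen after seeing the data, SBM replicates 3 and 5 left out. The tank sums and the posterior Hox covariate were fitted only with ICJ replicate 4 included. The fitting was tested on simulated data. The spleen was not used here.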

Additional observations from a re-analysis of the deposited data

Results flagged for a closer look

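Of 196 groups of 6 fish that were checked, for 98 named genes in each diet, 23 held a fish whose gap to the nearest other fish took up more of the range of the group than Dixon's critical value allows. Chance gives such a gap in about 5% of groups. In 13 of the 23 the fish was ICJ replicate 4. The named genes include 10 that were chosen because they stood furthest from the other libraries in ICJ replicate 4. Of these, clcnk, cldx, tacd2, hoxb8ab and meltf are among the 13, where the gap follows from the choice, so the count is not to be read against the 5%.

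ICJ replicate 4 was far above the other ICJ fish for clcnk at 130 CPM, cldx at 154 CPM, tacd2 at 414 CPM, hoxb8ab at 93.3 CPM, hoxc9aa at 4.17 CPM, il17d at 26.6 CPM and the platelet integrin gene itga2b at 14.7 CPM. It was far below them for meltf at 8.04 CPM, muc13b at 29.0 CPM, cdhr2 of the brush border at 4.47 CPM, the cholesterol transporter gene npc1l1 at 2.14 CPM, soat2 of cholesterol esterification at 3.1 CPM and ret at 0.0596 CPM.

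Among the other ICJ fish, replicate 1 was lowest for cd8a at 2.25 CPM and for lyz at 45.3 CPM. Among SBM fish, replicate 2 was lowest for aqp8 at 0 CPM, for cd8a at 3.13 CPM and for mep1bb, a meprin protease gene of the brush border, at 10.4 CPM, and replicate 6 was lowest for arhgap35a at 3.14 CPM. SBM replicate 3 was highest for nfkbiab at 47.8 CPM, SBM replicate 5 for ftcd at 10.1 CPM, and SBM replicate 4 for clcnk at 1.44 CPM and for hoxb13aa at 0.173 CPM.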

How the results depend on the processing

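With edgeR, 0 genes were called in any of the 20 alternatives to the fit of 36 libraries and the 17 alternatives without ICJ replicate 4. The fold change limit is counted in both and was applied to fits with 0 calls, so it could only give 0. The smallest adjusted p by edgeR was 0.0936, without ICJ replicate 1, and 0.646 when ICJ replicate 4 was left out as well. DESeq2 called 4 higher and 4 lower genes, and 2 and 2 without ICJ replicate 4. Genes at an unadjusted p under 0.05 numbered 1556, between 627 with only the SBM and ICJ libraries and 4363 without SBM replicates 3 and 5. For named genes, 1874 log2 fold changes were compared under the alternatives to the fit of 36 libraries. Of these, 1832 kept their direction and side of the threshold, and 41 in 23 genes changed sign. The remaining 1, pdia2 with DESeq2, passed the threshold. Many of these genes were chosen by a small p in the same fish, and the alternatives share most libraries. A kept direction thus follows in part from the choice, and the counts are no test of it. With a median standard error of 0.297 on the log2 scale, small differences could not be detected with 6 fish per diet. Large ones could go uncalled too, since edgeR did not call pdia2 despite its large fold change. The 0 calls of edgeR thus do not show that the diets were alike.

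Replicate numbers did not pair the fish (correlations of same-numbered fish 0.33, -0.37, 0.21, -0.17, -0.44 and -0.53). With the replicate block 0 genes were called, 1087 had an unadjusted p under 0.05, and the log2 fold change was -0.87 for apoa1, -0.65 for apoea, -1.23 for ret2 and -0.57 for slc15a1. With the posterior Hox covariate it was -0.17 for apoa1, -0.32 for apoea and -0.90 for ret2. Without SBM replicates 3 and 5, chosen after seeing the data, it was -0.0017 for apoea, 1.74 for bhmt, 1.84 for cpb1, 0.75 for ctrl, -0.073 for npc1l1, 0.72 for rhag, -0.10 for slc6a6b, 0.0049 for tal1 and 0.91 for vmo1. The cause of these changes was not tested.

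Leaving out each fish in turn, log2 fold changes that changed sign were between -0.49 and 0.12 for LOC106607266, -0.56 and 1.51 for apoa1, -0.80 and 0.46 for apoea, -0.89 and 0.044 for aqp10b, -0.14 and 0.52 for cd3e, -0.62 and 6.52 for clcnk, -0.19 and 5.16 for cldx, -0.037 and 0.96 for cyp4v2b, -0.0092 and 0.93 for hpxb, -0.26 and 3.03 for il12b2, -0.79 and 2.90 for il17d, -1.02 and 1.35 for itga2b, -0.23 and 0.46 for npc1l1, -0.62 and 1.11 for ret2, -0.97 and 0.056 for rhag, -0.34 and 0.087 for slc6a6, and -0.094 and 0.26 for slc6a6b.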
